A study of Homo sapiens with 16 samples.

Results

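The genes described are 10 steroid reductases and hydroxysteroid dehydrogenases, enzymes that make or remove active androgens, measured in RNA from LNCaP, a prostate cancer cell line of human origin that depends on androgen. They were chosen by name and are 10 of the 60642 gene symbols in the expression table. They were SRD5A1, SRD5A2, SRD5A3, HSD3B1, HSD3B2, HSD17B3, AKR1C3, HSD17B4, HSD17B6 and HSD17B11. Cells grew for 72 h with 5% fetal bovine serum and then for 48 h with 5% charcoal-stripped serum, a medium with little steroid. For a further 48 h they received 10 nM dihydrotestosterone (DHT, the main androgen of the prostate) or its solvent ethanol. Each was combined with DMSO, a solvent, or with 10 µM of an antiandrogen, called an antagonist below, namely apalutamide (APA), bicalutamide (BIC) or enzalutamide (ENZ). The groups without an antagonist are VEH and DHT, and those with one are BIC.VEH with BIC.DHT, ENZ.VEH with ENZ.DHT, and APA.VEH with APA.DHT. Each of the 8 groups had 2 replicates, which made 16 bulk RNA sequencing libraries. Replicates were labelled biological, with nothing further on whether the cultures were separate, so p-values measure only the spread between these libraries.

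Androgens are made from weaker precursors by a chain of oxidations and reductions. The 3-beta dehydrogenases turn adrenal precursors into androstenedione, the reductive 17-beta dehydrogenases turn androstenedione into testosterone, and the 5-alpha reductases turn testosterone into DHT. Oxidative members of the same families work in the other direction or regenerate DHT from its inactive diol, so the balance of these enzymes affects how much active hormone prostate cells hold.

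Of the 10 enzymes, 6 reached a TPM of 1 (transcripts scaled to gene length and library total) in at least 2 libraries and were tested. These were SRD5A1, SRD5A3, AKR1C3, HSD17B4, HSD17B6 and HSD17B11, among 16636 genes that passed the same filter. AKR1C3 fell 5.83-fold with DHT, from a mean of 8.23 to 1.41 TPM, and HSD17B11 rose 2.04-fold, from 5.46 to 11.1 TPM. In the 2 libraries with DHT alone AKR1C3 was lower, and HSD17B11 higher, than in any of the other 14. SRD5A3 and HSD17B4 varied by at most 1.45-fold and 1.42-fold between the lowest and the highest of the 16 libraries. SRD5A2, HSD3B2 and HSD17B3 stayed below 1 TPM in every library, and HSD3B1 passed 1 TPM in 1.

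The cell line was checked against its markers. All 7 luminal prostate markers summed here, among them KLK3, HOXB13 and KRT8, passed the filter, with a summed level of 2320 to 7750 TPM. The luminal sum was 7750 and 5580 TPM in the DHT libraries and 2320 to 3150 TPM in the other 14. KLK3 alone ran from 20.38 to 4102.26 TPM, while FOLH1 and HOXB13 were lower in DHT than in VEH. The basal epithelial markers summed to at most 1.94 TPM, with KRT5 at 0 to 0.16 TPM and TP63 at 0 to 0.04 TPM. Of the leukocyte markers CD3E was listed at 0 throughout and PTPRC reached 0.1 TPM, although CD68 passed the filter at 0.92 to 12.11 TPM. Of the fibroblast markers COL1A2 and DCN reached 0.01 and 0.07 TPM, although COL1A1 stood at 11.44 to 32.55 TPM. The basal sum was 1.94 and 1.75 TPM in the DHT libraries and 0.04 to 0.99 TPM in the other 14, mainly through KRT14, and the fibroblast sum was 11.4 and 15.9 TPM against 17.5 to 32.8 TPM, nearly all of it COL1A1. In all 8 groups replicate 2 had more of the markers of dividing cells than replicate 1, with a summed level of 102 to 706 TPM over the 8 markers. That sum was 356 and 706 TPM in the DHT libraries and 102 to 486 TPM in the others, and the part of these marker sums in the results below was not tested.

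**Figure D1:**
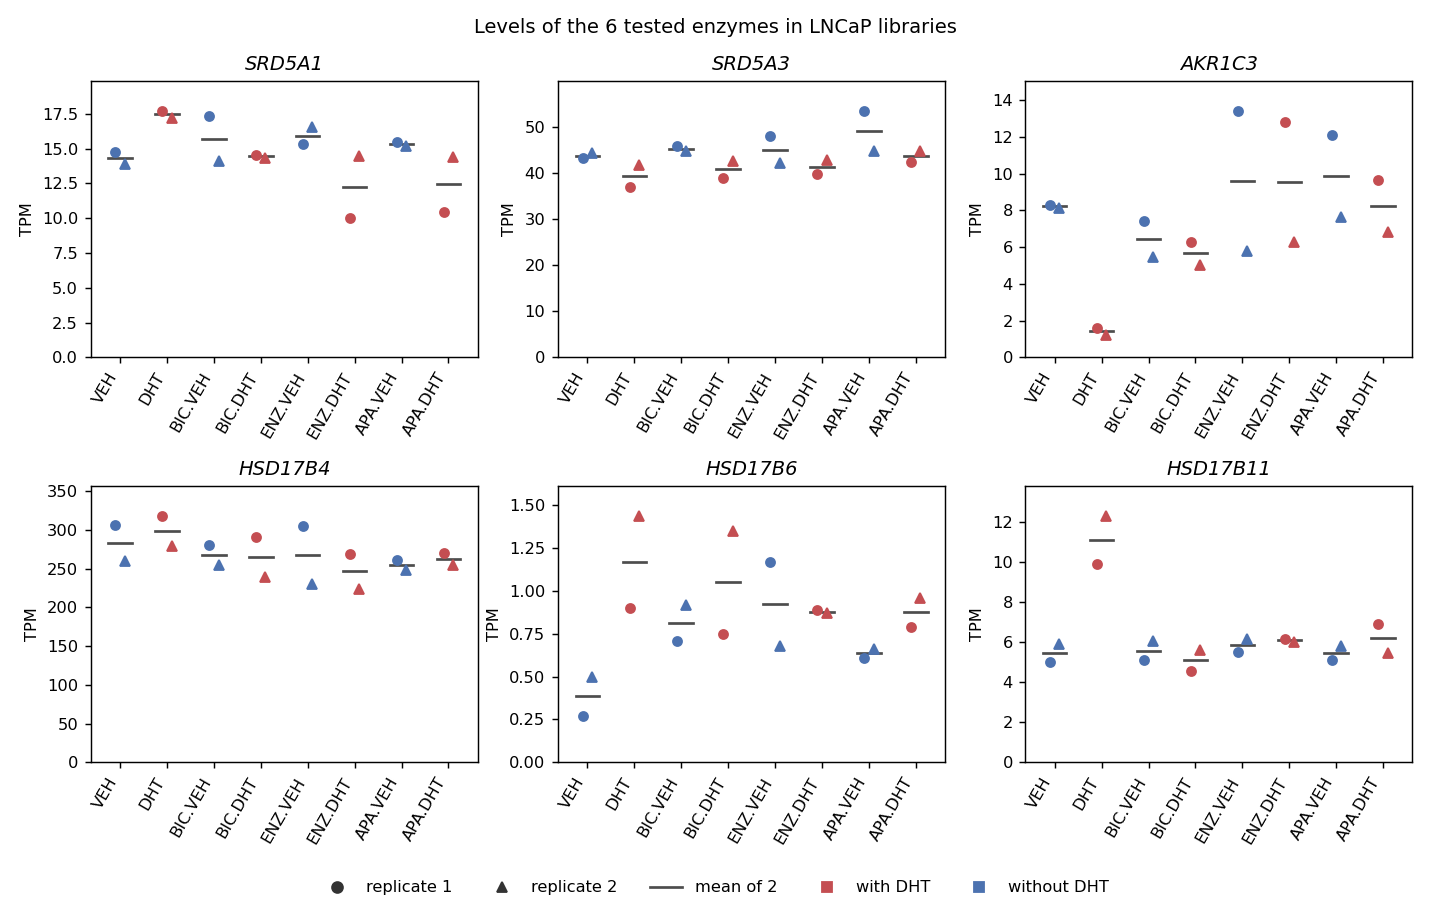
Levels of the 6 tested enzymes, in TPM on a linear axis from 0, in each of the 16 libraries. Circles are replicate 1, triangles replicate 2 and bars the mean of the 2. AKR1C3 is lowest and HSD17B11 highest in the DHT group, at 1.24 to 1.58 TPM and 9.93 to 12.34 TPM.

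AKR1C3 and HSD17B11 are the enzymes on which the DHT comparisons turn, and the 250 bases before their annotated starts are printed to show what the promoters of a gene that fell and a gene that rose hold. The sequences are from RefSeq for GRCh38.p14, whose table held 11 windows of 9 of the 10 enzymes and none for HSD17B6. AKR1C3 has 2 starts on the plus strand of chromosome 10, with windows at chr10:5048531-5048780 and chr10:5094164-5094413. HSD17B11 lies on the minus strand of chromosome 4, with its window at chr4:87391189-87391438. All are written 5′ to 3′ on the gene's strand, with matches to the motifs CCAAT and TATAAA, on either strand, in capitals.
AKR1C3 first start: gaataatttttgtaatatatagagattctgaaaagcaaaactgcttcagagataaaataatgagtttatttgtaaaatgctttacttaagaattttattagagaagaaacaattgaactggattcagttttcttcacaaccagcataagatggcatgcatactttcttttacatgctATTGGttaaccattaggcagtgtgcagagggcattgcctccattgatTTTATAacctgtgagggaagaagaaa
AKR1C3 second start: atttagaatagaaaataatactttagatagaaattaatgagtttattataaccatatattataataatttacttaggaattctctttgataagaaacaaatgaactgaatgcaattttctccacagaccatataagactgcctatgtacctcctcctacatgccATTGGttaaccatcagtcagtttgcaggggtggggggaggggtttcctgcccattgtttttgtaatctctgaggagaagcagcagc
HSD17B11: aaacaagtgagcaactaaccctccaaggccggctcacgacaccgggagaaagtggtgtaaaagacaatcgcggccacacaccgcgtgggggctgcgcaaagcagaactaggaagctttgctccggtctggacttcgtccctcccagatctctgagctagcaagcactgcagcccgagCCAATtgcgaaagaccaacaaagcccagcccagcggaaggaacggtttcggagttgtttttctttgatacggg
A CCAAT match began 73 bases before the first AKR1C3 start, 86 bases before the second and 73 bases before that of HSD17B11. The first AKR1C3 window also held a TATAAA match 26 bases before the start. CCAAT was found in 34.6% and TATAAA in 11.5% of all 35116 windows of 300 bases, from 250 before to 50 after a start. In such windows of its own, AKR1C3 had 33.7% and 36.7% G or C and 0 CpG, and HSD17B11 had 55.3% and 18 CpG, against medians of 58.7% and 14 over all windows.

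The palindromic androgen response element, searched as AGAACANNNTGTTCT on both strands, was in none of the 11 windows and in 1 of the 35116 (0.00285%). Its half-site AGAACA, which is part of the full element, was in 14.8% of all windows and among these enzymes only in that of HSD3B2. The GC box GGGCGG was in 45% of all windows, and among these enzymes in those of SRD5A1, SRD5A2, SRD5A3 and HSD17B4. The antioxidant response core TGACNNNGC was in 13.3% of all windows and only SRD5A3 held it here. These matches describe letters in short windows and say nothing of binding in LNCaP cells.

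The 5-alpha reductases were represented by SRD5A1 and SRD5A3. SRD5A1 reduces testosterone and androstenedione and is the form that many prostate cancers use (chromosome 5, 6633440 to 6674386 in GRCh38.p14). It stood at 14.77 and 13.87 TPM in VEH (replicates 1 and 2) and at 17.73 and 17.20 TPM with DHT. With DHT and an antagonist it stood at 14.54 and 14.33 TPM in BIC.DHT, 10.04 and 14.45 TPM in ENZ.DHT, and 10.44 and 14.43 TPM in APA.DHT. Both DHT libraries were above both VEH libraries, and replicate 1 of ENZ.DHT and of APA.DHT was the lowest of all. Mitochondrial genes held 19.4% and 19.2% of the TPM of those 2 libraries. They held 22.3% in DHT replicate 1, where SRD5A1 was highest, and 14.7% in DHT replicate 2, the highest and lowest shares of the 16. With mitochondrial genes removed, the SRD5A1 log2 fold change against DHT was -0.51 in ENZ.DHT and -0.49 in APA.DHT, against -0.50 and -0.47 with them. The part of the mitochondrial share in the SRD5A1 levels was not tested.

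The SRD5A1 levels without DHT under an antagonist were 17.33 and 14.11 TPM in BIC.VEH, 15.34 and 16.54 TPM in ENZ.VEH, and 15.44 and 15.20 TPM in APA.VEH. In the order of group means, from 12.2 ± 3.12 TPM in ENZ.DHT to 17.5 ± 0.375 TPM in DHT (SD, n = 2), DHT at the top did not overlap ENZ.VEH below it. BIC.DHT and APA.VEH also did not overlap, and the other neighbours did. Log2 fold changes below are on the log2(TPM + 1) scale. SRD5A1 had 0.27 for DHT against VEH (SE 0.18), which was not called (limma adjusted p 0.395). Here called means a Benjamini-Hochberg adjusted p under 0.05 over all 16636 genes.

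SRD5A3 reduces polyprenol to dolichol, the lipid that carries sugars for N-linked glycosylation, besides its reported action on steroids (chromosome 4, 55346242 to 55373100). It was the second most abundant of the 10 enzymes, at 36.96 to 53.56 TPM over the 16 libraries. VEH had 43.24 and 44.27 TPM and DHT 36.96 and 41.65 TPM, and every group overlapped its neighbour in the order of means, from DHT (39.3 ± 3.32) to APA.VEH (49.2 ± 6.15, SD, n = 2). The log2 fold change of DHT against VEH was -0.15 (SE 0.12, limma adjusted p 0.482), with a 95% interval from -0.43 to 0.12. An antisense gene, SRD5A3-AS1, overlaps it and stood at 0.1 to 0.79 TPM. Whether the counting used strand was not stated.

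The ratio of SRD5A1 to SRD5A3 within a library was 0.413 to 0.48 with DHT alone and 0.246 to 0.393 in the other 14 libraries. The ratio is a description and was not tested. Neither gene was called for DHT against VEH, with or without replicate number as a block. SRD5A2, the principal 5-alpha reductase of the normal prostate (chromosome 2, 31522480 to 31663009), stood at 0 to 0.02 TPM and was listed at 0 in 8 of 16 libraries. A TPM listed at 0 may reflect an estimate that failed, and its fold change is left out.

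The 3-beta dehydrogenases were low. HSD3B1, the form found outside the adrenal and gonads (chromosome 1, 119507203 to 119515058), had a median of 0.325 TPM. VEH had 0.41 and 0.19 TPM and DHT 0.85 and 0.35 TPM, and its only value over 1 TPM was 1.78 in BIC.VEH replicate 1, whose replicate had 0.15. HSD3B2, the adrenal and gonadal form (chromosome 1, 119414931 to 119423034), was listed at 0 in 12 libraries and reached 0.21 TPM. The 2 genes are near-identical neighbours, and reads that fit both were divided by the authors' estimation.

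Of the enzymes that reduce androstenedione to testosterone, HSD17B3, the testicular form (chromosome 9, 96235306 to 96302176), had a median of 0.185 TPM. It stood at 0.12 and 0.14 TPM in VEH, at 0.06 and 0 with DHT, and highest in ENZ.DHT replicate 1 at 0.62 TPM. The 4 enzymes below the filter were not tested, and no direction is given for them.

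**Figure D2:**
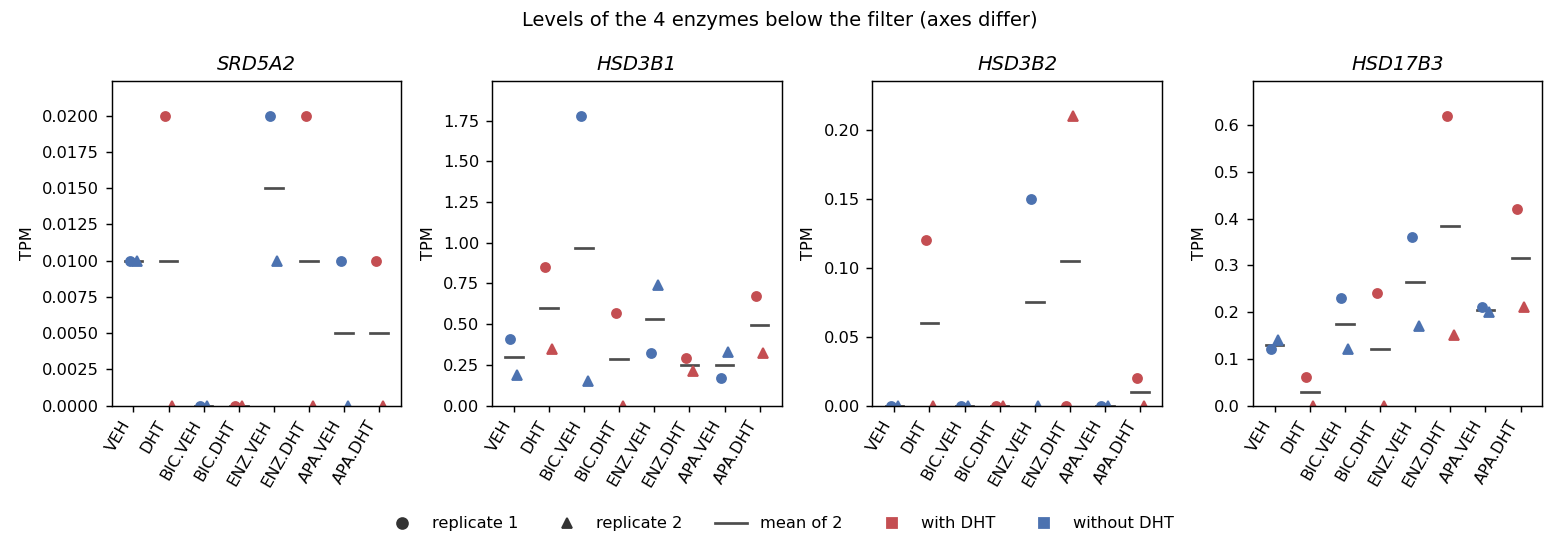
Levels of the 4 enzymes below the filter, in TPM on linear axes that start at 0 and differ between panels, in the 16 libraries. Circles are replicate 1, triangles replicate 2 and bars the mean of the 2. No group has both replicates above 1 TPM, and HSD3B1 reaches 1.78 TPM in 1 library only.

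AKR1C3, the form that makes testosterone outside the testis (chromosome 10, 5048781 to 5107686), had the largest fold range of the tested enzymes over the 16 libraries, at 10.8-fold. VEH had 8.32 and 8.13 TPM, and DHT 1.58 and 1.24 TPM. With DHT and an antagonist it had 6.28 and 5.04 TPM in BIC.DHT, 12.81 and 6.26 TPM in ENZ.DHT, and 9.66 and 6.81 TPM in APA.DHT. The DHT libraries lay below all others, and every library with DHT and an antagonist was over 3 times the higher DHT library.

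The AKR1C3 levels under an antagonist without DHT were 7.40 and 5.47 TPM in BIC.VEH, 13.44 and 5.78 TPM in ENZ.VEH, and 12.12 and 7.63 TPM in APA.VEH. In the order of means, from DHT (1.41 ± 0.24) over BIC.DHT (5.66 ± 0.877), BIC.VEH (6.44 ± 1.36), VEH (8.23 ± 0.134) and APA.DHT (8.23 ± 2.02) to ENZ.DHT (9.54 ± 4.63), ENZ.VEH (9.61 ± 5.42) and APA.VEH (9.88 ± 3.17 TPM, SD, n = 2), DHT stood apart. BIC.VEH and VEH also did not overlap, and the other neighbours did. Replicate 1 was higher than replicate 2 in all 8 groups.

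For DHT against VEH the log2 fold change of AKR1C3 was -1.94 (SE 0.38, limma adjusted p 0.00816), and within the replicate numbers it was -1.85 and -2.03. The call ended without DHT replicate 2 (log2 fold change -1.84, adjusted p 0.0673) and without VEH replicate 1 (-1.93, adjusted p 0.0592), where 1 library stands for its group. Over all 23 alternative settings it was called in 21, with adjusted p from 0.000168 to 0.0673.

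AKR1C1 and AKR1C2, close paralogs of AKR1C3 that inactivate DHT and progesterone, share many of its bases, and the estimation divides shared reads among them. AKR1C1 stood at 5.52 and 6.24 TPM in VEH against 1.72 and 1.29 TPM in DHT, a difference of -1.46 on the log2 scale (SE 0.63, limma adjusted p 0.173, and 0.0381 with replicate number as a block). AKR1C2 stood at 10.41 and 6.97 TPM against 3.5 and 3.59 TPM, and its log2 fold change of -1.07 was not called (limma adjusted p 0.329, and 0.0539 with the block). Both paralogs were lower with DHT in each replicate, and how far their reads entered the AKR1C3 values was not tested. In replicate 1 of ENZ.VEH and ENZ.DHT, the libraries where AKR1C3 was highest, AKR1C1 stood at 25.52 and 21.53 TPM and AKR1C2 at 33.57 and 30.05 TPM, against 5.47 and 6.09 TPM and 8.06 and 9.24 TPM in their replicates.

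Among the oxidative enzymes, HSD17B4, a peroxisomal enzyme of fatty acid beta-oxidation that also oxidises estradiol (chromosome 5, 119452497 to 119542332), was by far the most abundant. It held 75% to 82.4% of the summed TPM of the 10 enzymes in each library, and SRD5A3 held 9.56% to 15.4%. VEH had 305.64 and 259.90 TPM and DHT 318.42 and 279.53 TPM, so the groups overlapped. Over all groups it ran from 246 ± 31.3 TPM in ENZ.DHT to 299 ± 27.5 TPM in DHT (SD, n = 2), with every neighbour in that order overlapping and replicate 1 higher in all 8 groups. Its log2 fold change for DHT against VEH was 0.08 (SE 0.16, limma adjusted p 0.809), with a 95% interval from -0.28 to 0.44.

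HSD17B6, which can regenerate DHT from 3-alpha-androstanediol (chromosome 12, 56763324 to 56787790), was near the filter. VEH had 0.27 and 0.50 TPM, the 2 lowest values of the 16 libraries, and DHT 0.90 and 1.44 TPM. With an antagonist it ran from 0.61 to 1.35 TPM over 12 libraries, whether or not DHT was present. It passed the filter through 3 libraries, DHT replicate 2, BIC.DHT replicate 2 and ENZ.VEH replicate 1, so its inclusion depended in part on the group where it was high. The log2 fold change for DHT against VEH was 0.64 (SE 0.21, limma adjusted p 0.0796) and was not called. The adjusted p was 0.0325 with replicate number as a block and 0.0461 after median-ratio scaling of the libraries, and over all 23 alternative settings it ran from 0.0325 to 0.372.

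HSD17B11, a lipid droplet enzyme that oxidises 3-alpha-androstanediol to androsterone (chromosome 4, 87336515 to 87391188), stood at 5.00 and 5.93 TPM in VEH against 9.93 and 12.34 TPM in DHT. With DHT and an antagonist it had 4.55 and 5.64 TPM in BIC.DHT, 6.19 and 6.03 TPM in ENZ.DHT, and 6.90 and 5.49 TPM in APA.DHT. Only the DHT libraries were over 7 TPM, and the other 14, including BIC.VEH (5.10 and 6.07), ENZ.VEH (5.50 and 6.19) and APA.VEH (5.11 and 5.84 TPM), lay between 4.55 and 6.90. The group means of those 7 groups ran from 5.09 ± 0.771 TPM in BIC.DHT to 6.2 ± 0.997 TPM in APA.DHT (SD, n = 2), and each overlapped its neighbour.

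For DHT against VEH the log2 fold change of HSD17B11 was 0.91 (SE 0.17, limma adjusted p 0.00764), and within the replicate numbers it was 0.87 and 0.94. The call ended without DHT replicate 2 (log2 fold change 0.76, adjusted p 0.0782), without VEH replicate 1 (0.80, adjusted p 0.0808) and in a fit limited to the DHT and VEH groups (0.91, adjusted p 0.0914). Over the 23 alternative settings it was called in 20, with adjusted p from 0.00107 to 0.0914.

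The androgen response of the enzymes as a group was 1 member higher and 1 lower of 6 tested. Over all genes 10.3% were called in this comparison, 3.63% higher and 6.64% lower, or 6.29% and 5.17% after median-ratio scaling. With replicate number as a block 3 of the 6 were called, HSD17B6 being added, against 27.4% of all genes. The median log2 fold change was 0.18 over the 6 enzymes and -0.10 over all genes tested, a shift that median-ratio scaling took to 0.31 and 0.01. AKR1C3 and HSD17B11 kept their direction under that scaling. In the deposited RNA, fewer cells with a transcript and less transcript per cell cannot be told apart.

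**Figure D3:**
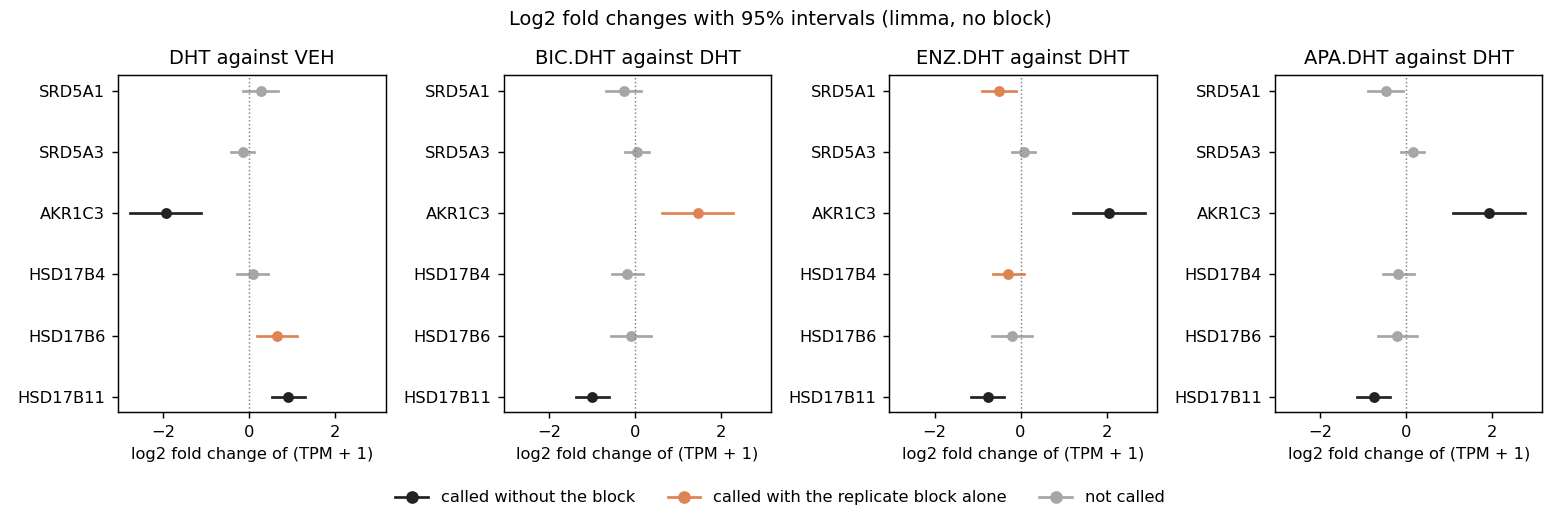
Log2 fold changes of log2(TPM + 1) of the 6 tested enzymes (points) with 95% intervals (lines), from limma without replicate number as a block. The 4 comparisons are DHT against VEH and each antagonist with DHT against DHT alone. AKR1C3 and HSD17B11 lie on opposite sides of 0 in every panel, and their signs in the antagonist panels are opposite to those of DHT against VEH. The same DHT libraries are subtracted in the antagonist panels and added in the first. Opposite signs therefore do not show that an antagonist reversed the response to DHT.

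The comparisons of each antagonist with DHT against DHT alone ask how the levels seen with DHT stand when an antagonist is also present. They share the DHT libraries with each other and with the comparison above, so the same 2 libraries enter every value. Mean AKR1C3 was 4.01-fold higher in BIC.DHT, 6.76-fold higher in ENZ.DHT and 5.84-fold higher in APA.DHT than in DHT. Mean HSD17B11 was lower than in DHT by 2.19-fold, 1.82-fold and 1.8-fold.

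In BIC.DHT, 1 of the 6 enzymes was called, against 3.13% of all genes (1.45% higher and 1.68% lower). That was HSD17B11, with a log2 fold change of -0.99 (limma adjusted p 0.0118). AKR1C3 differed by 1.46 on the log2 scale (SE 0.38). Its limma adjusted p was 0.0658, and 0.00233 with the replicate block, where it was called. With the block 2 of 6 were called, against 13.3% of all genes. The HSD17B11 call ended without BIC.DHT replicate 1 (log2 fold change -0.86, adjusted p 0.137) or 2 (-1.12, adjusted p 0.0511), without DHT replicate 2 (-0.85, adjusted p 0.126) and with only the compared groups in the fit (adjusted p 0.173). Leaving out any 1 library of ENZ.VEH or ENZ.DHT, where the replicates of AKR1C3 lay far apart, brought its adjusted p to between 0.0388 and 0.0459 at the same fold change. Over the 23 alternative settings the adjusted p ran from 0.00233 to 0.33 for AKR1C3 and from 0.00162 to 0.173 for HSD17B11.

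In ENZ.DHT, 2 of the 6 enzymes were called, against 9.65% of all genes (4.74% higher and 4.91% lower). AKR1C3 rose by 2.06 on the log2 scale (SE 0.38, limma adjusted p 0.00718), and HSD17B11 fell by 0.76 on the log2 scale (limma adjusted p 0.0201). With the block 4 of 6 were called, against 29.2% of all genes. The added ones were SRD5A1 (log2 fold change -0.50, adjusted p 0.115 without the block and 0.0487 with it) and HSD17B4 (-0.28, 0.3 and 0.0369). The AKR1C3 call ended without DHT replicate 2 (1.96, adjusted p 0.0621), without ENZ.DHT replicate 1 (1.59, adjusted p 0.0665) and with only the compared groups (adjusted p 0.141). The HSD17B11 call ended without DHT replicate 2 (-0.62, adjusted p 0.151), without ENZ.DHT replicate 1 (-0.78, adjusted p 0.0911) or 2 (-0.75, adjusted p 0.0547) and with only the compared groups (adjusted p 0.244). SRD5A1 was called without ENZ.DHT replicate 2, which left 10.04 TPM to stand for the group (-0.74, adjusted p 0.0382). Over the 23 alternative settings the adjusted p ran from 0.000126 to 0.141 for AKR1C3, from 0.0029 to 0.244 for HSD17B11, from 0.0382 to 0.56 for SRD5A1 and from 0.0369 to 0.619 for HSD17B4.

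In APA.DHT, 2 of the 6 enzymes were called, and 2 with the block, against 8.36% (4.25% higher and 4.11% lower) and 27.3% of all genes. AKR1C3 rose by 1.92 on the log2 scale (SE 0.38, limma adjusted p 0.0104), and HSD17B11 fell by 0.75 on the log2 scale (limma adjusted p 0.0225). The AKR1C3 call ended without APA.DHT replicate 1 (1.70, adjusted p 0.0727) and without DHT replicate 2 (1.82, adjusted p 0.0809), and that of HSD17B11 without APA.DHT replicate 2 (-0.61, adjusted p 0.0826) and without DHT replicate 2 (-0.61, adjusted p 0.17). Neither was called with only the compared groups in the fit (adjusted p 0.136 and 0.301), the highest values over the 23 alternative settings, of which 20 called AKR1C3 and 20 HSD17B11.

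SRD5A3 and HSD17B6 were called in none of these 3 comparisons, with or without the block. Their log2 fold changes were 0.05, 0.07 and 0.15 for SRD5A3 and -0.09, -0.20 and -0.20 for HSD17B6 in BIC.DHT, ENZ.DHT and APA.DHT against DHT.

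DHT against vehicle within each antagonist uses 12 libraries that the comparison of DHT with VEH does not, and so gives a separate reading of the response to DHT in the presence of an antagonist. By limma 0 of the 6 enzymes were called in any of the 3 arms, with or without the block, and 0 of 18 values had an unadjusted p under 0.05. Over all genes 0% were called within BIC and 0.00601% within each of ENZ and APA. An unadjusted p under 0.05 was found in 234, 541 and 408 of the 16636 genes within BIC, ENZ and APA. For AKR1C3 the log2 fold changes were -0.15 within BIC (95% interval -0.98 to 0.68), 0.02 within ENZ (-0.81 to 0.85) and -0.22 within APA (-1.05 to 0.61). For HSD17B11 they were -0.11, 0.06 and 0.15. The lowest bound of the 3 intervals of AKR1C3 was -1.05, and the interval without an antagonist ran from -2.77 to -1.11.

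**Figure D4:**
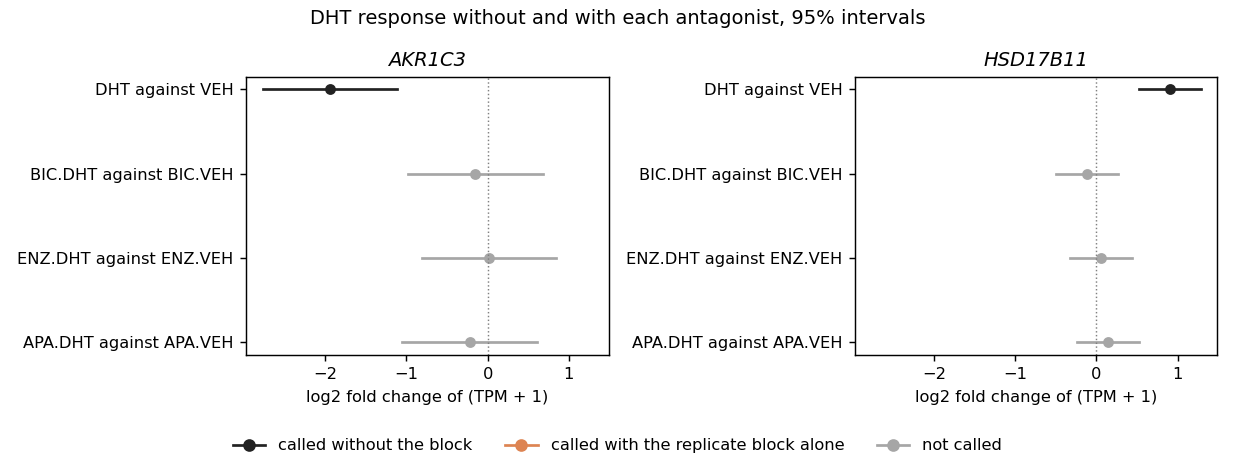
Response of AKR1C3 and HSD17B11 to DHT, as log2 fold change of log2(TPM + 1). The top line of each panel is without an antagonist and the others are within each antagonist. The 95% intervals are from limma without replicate number as a block. The intervals without an antagonist lie away from 0, at -1.94 for AKR1C3 and 0.91 for HSD17B11, and the 6 within an antagonist cross it.

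The difference between these responses was tested as the interaction of each antagonist with DHT. By limma 0 of the 6 enzymes were called in each, against 0.986%, 1.63% and 1.42% of all genes for BIC, ENZ and APA. An unadjusted p under 0.05 was found in 8 of 18 values, which are not independent. Over all 16636 genes it was found in 1716, 2163 and 2184. With replicate number as a block 2 of 6 were called in each, against 6.39%, 9.91% and 10.1% of all genes. These were AKR1C3, with values of 1.79, 1.96 and 1.72 (adjusted p 0.185, 0.111 and 0.173 without the block and 0.00909, 0.00428 and 0.00881 with it), and HSD17B11, with -1.02, -0.85 and -0.76 (0.0898, 0.136 and 0.191 without it and 0.0152, 0.025 and 0.0396 with it). Over the 23 alternative settings the highest adjusted p of these 6 values was between 0.308 and 0.509. All 3 interactions share the VEH and DHT libraries.

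An antagonist without DHT was compared with VEH to see whether the drugs alone moved these enzymes. By limma 0 of 6 were called with BIC, ENZ or APA, with or without the block, against 0%, 0% and 0.00601% of all genes. Of the 18 values 1 had an unadjusted p under 0.05, HSD17B6 with ENZ, at a log2 fold change of 0.47 (unadjusted p from limma 0.0475, adjusted p 1). Over all 16636 genes an unadjusted p under 0.05 was found in 194, 139 and 151 with BIC, ENZ and APA. AKR1C3 had log2 fold changes of -0.32, 0.10 and 0.21, and HSD17B11 of 0.03, 0.08 and 0.00, with BIC, ENZ and APA.

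Enzalutamide and apalutamide are close analogs built on a thiohydantoin ring, which bicalutamide lacks. They were compared at the same dose and time with DHT present, in 3 pairs. By limma 0 of the 6 enzymes were called in any pair, with or without the block. Over all genes 0.00601% were called between ENZ and BIC, 0% between APA and BIC and 0.00601% between APA and ENZ, and with the block 0.012%, 0.0541% and 0.00601%. An unadjusted p under 0.05 was found in 0 of 18 values, and with the block in 1, AKR1C3 between ENZ and BIC (unadjusted p from limma 0.0248). Over all 16636 genes it was found in 565, 483 and 102 in the same order of pairs, and with the block in 2062, 1643 and 232. AKR1C3 differed by 0.59 on the log2 scale between ENZ.DHT and BIC.DHT (95% interval -0.23 to 1.42, limma adjusted p 0.93, 0.328 with the block). For APA.DHT against BIC.DHT the value was 0.46 (-0.37 to 1.29) and for APA.DHT against ENZ.DHT -0.13 (-0.96 to 0.69). HSD17B11 differed by 0.23, 0.24 and 0.01 in the same order, the last with an interval from -0.37 to 0.39. The intervals do not show that the compounds act alike on either gene.

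AKR1C3 and HSD17B11 moved apart within the same libraries. The ratio of AKR1C3 to HSD17B11, both in TPM, was 0.1 and 0.159 in the 2 DHT libraries and 0.894 to 2.44 in the other 14. Over the 16 libraries Pearson's r of their log2(TPM + 1) was -0.78, which is a description and rests on 2 libraries that stand apart from a cluster of 14.

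**Figure D5:**
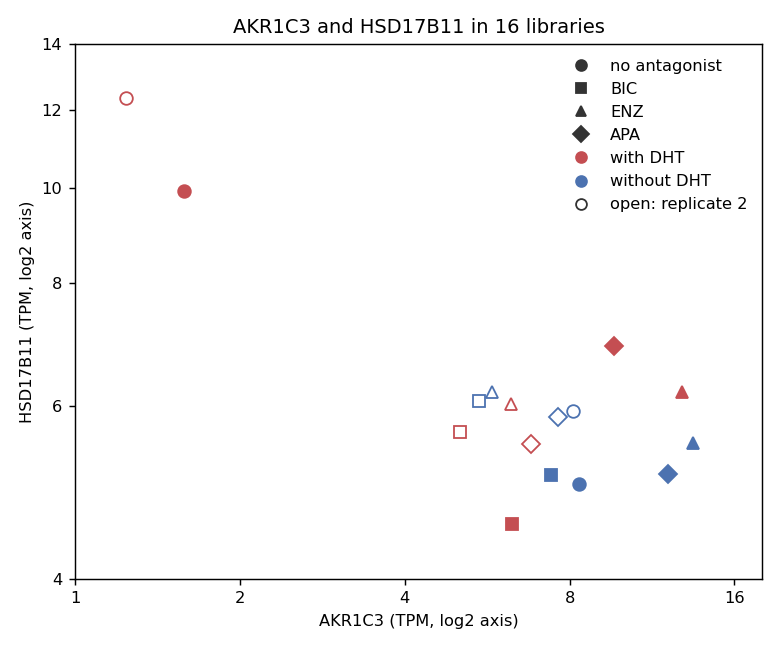
AKR1C3 against HSD17B11 in each of the 16 libraries, in TPM on log2 axes. Marker shape gives the antagonist, colour the presence of DHT and open markers replicate 2. The 2 libraries with DHT alone (circles at upper left) are apart from the other 14, which lie between 5.04 and 13.44 TPM of AKR1C3 and 4.55 and 6.9 TPM of HSD17B11.

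The tested genes whose pattern was most like that of AKR1C3 over the 16 libraries were CRNDE, a long noncoding RNA (Pearson's r 0.976), and AC136489.1 (0.973). CRNDE had 28.46 and 23.84 TPM with DHT and 37.58 to 83.03 TPM in the other 14 libraries. Those most like HSD17B11 were MYBPC1, a muscle myosin-binding protein (0.939), and RBFA, a ribosome-assembly factor of mitochondria (0.926). MYBPC1 had 15.03 and 22.45 TPM with DHT and 1.18 to 4.44 TPM elsewhere. These correlations share the libraries and their scaling, and the genes were picked as the highest of all those tested.

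Of 35 other steroid pathway genes, 20 passed the filter, and for DHT against VEH 2 of them were called higher and 2 lower, against 3.63% and 6.64% of all genes. With the block 2 were called higher and 6 lower, against 10.6% and 16.8% of all genes. Their median log2 fold change was -0.16, against -0.10 over all genes. CYP11A1, the side-chain cleavage enzyme that starts steroid synthesis, stood at 0.32 and 0.14 TPM in VEH against 2.99 and 3.3 TPM in DHT. It reached 1 TPM only in DHT and BIC.DHT libraries and so passed the filter through the groups where it was high, and its values are given as a description although it is 1 of the 2 counted higher. By contrast, STAR and CYP17A1, the other early steps of synthesis, reached 0.46 and 0.03 TPM. CYB5A, the cytochrome that assists CYP17A1, rose from 302.95 and 314.72 TPM to 415.36 and 487.97 TPM (0.54, limma adjusted p 0.0183).

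The pathway genes called lower for DHT against VEH without the block were HSD17B14 and FDX1. With the block FDXR, HSD17B1, AKR1C1 and SULT2B1 were also called lower. Their log2 fold changes were -0.53, -0.65, -1.46 and -0.34 (limma adjusted p with the block 0.0256, 0.0134, 0.0381 and 0.03). HSD17B14, an oxidative 17-beta dehydrogenase, fell from 6.81 and 5.99 TPM in VEH to 2.52 and 1.69 TPM (log2 fold change -1.26, limma adjusted p 0.0316). FDX1, the ferredoxin that passes electrons to CYP11A1, fell from 21.49 and 22.9 TPM to 15.06 and 14.99 TPM (-0.53, limma adjusted p 0.0318). With an antagonist and DHT, 0 of the 20 were called in BIC.DHT against DHT by limma and 4 with the block, against 3.13% and 13.3% of all genes. In ENZ.DHT 2 were higher, HSD17B14 and AKR1C1, and 1 lower (9 called with the block), against 9.65% and 29.2% of all genes. In APA.DHT 1 was higher and 1 lower (7 with the block), against 8.36% and 27.3%. The 1 lower gene was CYP11A1 in both, which passed the filter through DHT and BIC.DHT libraries. The filter favoured a lower level against DHT for it, so these lower counts are not read as a result.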

How the data were processed

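Bulk RNA sequencing of 16 LNCaP libraries was analysed from 1 deposited table. The authors trimmed reads with Trim Galore 0.6.5 after FastQC 0.11.9, aligned them to GRCh38 with STAR 2.7.2b and estimated gene levels with RSEM 1.3.3, as their processing notes and methods name them. The values the authors deposited are TPM per gene symbol, 1 column per library and none from other samples (0 columns). TPM is scaled to gene length and to the library total, so abundant transcripts that rise lower all others. It keeps no depth, so read depth is unknown for every value and counting intervals are left out. About 40 M read pairs of 125 bp are stated per sample, per the labels. RSEM divides reads that fit several genes by a model.

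Genes with TPM of at least 1 in 2 or more libraries (16636 of 60642) were tested on log2(TPM + 1), which understates changes of low genes, with limma 3.58.1 in R 4.3.3 (trend option, 8 group means, 16 libraries). Adjusted p-values are Benjamini-Hochberg values over all genes tested in a contrast. The fit without the block was run on simulated data for DHT against VEH only. The simulated noise was independent between libraries, so that run does not test the block or deviations that same-numbered libraries share. Groups and replicate numbers came from the labels, which do not say what a number shares. The deviations of the same-numbered libraries from their group means correlated in all 28 pairs of groups (0.204 to 0.635, median 0.427). The numbers were therefore taken to pair the libraries, which the fit without the block ignores. Unless another setting is named, the SEs, intervals, leave-one-out values and plotted fold changes are from that fit. For DHT against VEH the SE of AKR1C3 was 0.377 without the block and 0.228 with it, and that of SRD5A1 0.184 and 0.17. Lack of a call without the block is therefore not read as absence of a response. A fit with replicate number as a block is given where it changes a call. The counts of enzymes called in every comparison, the values of the 6 enzymes in the 4 pairwise comparisons that use the DHT group, and AKR1C3 and HSD17B11 in all comparisons were recomputed under 23 alternatives: a pseudocount of 0.1, no filter, median-ratio scaling, mitochondrial genes removed, the compared groups alone, the replicate block, no trend, and each of the 16 libraries left out. All 10 enzymes are named, with the steroid pathway genes called for DHT against VEH and the 2 genes that correlate best with each enzyme called there. AKR1C1, AKR1C2, STAR, CYP17A1, FDXR, HSD17B1 and SULT2B1 were named after their values were seen. The enzymes, gene lists and tests were chosen with earlier results of these data known. Positions and promoters came from RefSeq tables of GRCh38.p14. A further luminal marker is not reported here. Figures were drawn with matplotlib 3.10.9.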

Additional observations from a re-analysis of the deposited data

Results flagged for a closer look

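The response to DHT differed between cells without and with each antagonist for 2 of the 6 enzymes tested. The test was the interaction term of limma with replicate number as a block. It called 6.39%, 9.91% and 10.1% of all genes for BIC, ENZ and APA. The interactions all share the VEH and DHT libraries, between which these 2 enzymes were called, so they are not separate support. For AKR1C3 the interaction was 1.787 with BIC, 1.957 with ENZ and 1.718 with APA on the log2 scale (adjusted p 0.00909, 0.00428 and 0.00881). For HSD17B11 it was -1.018, -0.849 and -0.758 (adjusted p 0.0152, 0.025 and 0.0396). In the fit of all 16 libraries without the block none of these 6 values was called, and in a fit limited to the compared groups AKR1C3 with BIC was (adjusted p 0.045). In replicates 1 and 2 AKR1C3 moved with DHT by -1.85 and -2.03 without an antagonist, against -0.21 and -0.10 within BIC, -0.06 and 0.10 within ENZ, and -0.30 and -0.14 within APA.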

How the results depend on the processing

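The 48 results for single enzymes that were recomputed had 23 alternatives each, which gave 1104 values. Of these 1038 kept their direction and their side of the threshold, 22 lost a call, 18 gained one and 26 had the opposite sign. With only the compared groups in the fit, 1 enzyme was called for DHT against VEH, 0 for BIC.DHT, ENZ.DHT or APA.DHT against DHT, and 1 for the interaction with BIC. With the pseudocount of 0.1, 2 were called for BIC.DHT against DHT. With the replicate block 2 were called for BIC.DHT and 4 for ENZ.DHT against DHT, against 13.3% and 29.2% of all genes. For each interaction 2 were called with it, against 6.39%, 9.91% and 10.1% of all genes for BIC, ENZ and APA. The block changed no call beyond those given with its adjusted p above. Leaving out 1 library at a time, 0 to 2 were called in each of the comparisons of BIC.DHT, ENZ.DHT or APA.DHT with DHT, and of DHT with VEH. The share of all genes called is not given for the compared groups alone, the pseudocount of 0.1 or the libraries left out. Those counts are therefore not read as a result about these enzymes. The cause of these shifts was not tested. The opposite signs all belong to values that were not called. After median-ratio scaling HSD17B11 differed by -0.006 between APA.DHT and ENZ.DHT. Leaving out 1 library, AKR1C3 ranged from -0.524 to 0.08 for DHT within APA, -0.528 to 0.563 within ENZ and -0.341 to 0.035 within BIC, from -0.598 to 0.33 for APA.DHT against ENZ.DHT, and from -0.096 to 0.508 (APA.VEH) and -0.444 to 0.647 (ENZ.VEH) against VEH. HSD17B11 ranged from -0.243 to 0.016 for DHT within BIC and -0.016 to 0.129 within ENZ, from -0.132 to 0.152 for APA.DHT against ENZ.DHT, and from -0.1 to 0.108 (APA.VEH), -0.08 to 0.133 (BIC.VEH) and -0.02 to 0.188 (ENZ.VEH) against VEH. HSD17B4 ranged from -0.035 to 0.198 for DHT against VEH, HSD17B6 from -0.299 to 0.126 for BIC.DHT against DHT, and SRD5A3 from -0.03 to 0.138 for BIC.DHT and -0.011 to 0.157 for ENZ.DHT against DHT. With 2 libraries a group, a library left out leaves 1 that is assumed to vary like the other groups.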

Other observations

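AKR1C1 and AKR1C2 had a shared outlying pair of libraries, in which AKR1C3 was also highest but by a small margin. In ENZ replicate 1, AKR1C1 was 25.52 TPM without and 21.53 TPM with DHT, while over the other 14 libraries it ran from 1.29 to 9.05 TPM. AKR1C2 was 33.57 and 30.05 TPM in the same pair and 3.5 to 13.74 TPM in the others, and AKR1C3 was 13.44 and 12.81 TPM there and at most 12.12 TPM elsewhere. The ENZ.VEH library of the pair also had the highest CD68, a macrophage and lysosome gene, at 12.11 TPM against 0.92 to 6.89 TPM in the other 15 libraries, while the leukocyte gene PTPRC was listed at 0 in it. The ENZ.DHT library of the pair had 2.87 TPM of CD68, inside that range.

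HSD17B14 with ENZ and DHT was higher than with DHT alone, at 9.76 and 5.84 TPM against 2.52 and 1.69 TPM (log2 fold change 1.48, limma adjusted p 0.0176). In APA.DHT and BIC.DHT against DHT its log2 fold changes were 1.17 and 0.81. Neither was called by limma without the block (adjusted p 0.0502 and 0.258), and both were with it (0.000591 and 0.00968). HSD17B14 was named for its fall in DHT against VEH. The same DHT libraries enter these comparisons, so they are not separate support. CYP11A1 stood at 2.99 and 3.3 TPM with DHT alone, 2.2 and 1.17 TPM in BIC.DHT, 0.43 and 0.40 TPM in ENZ.DHT, and 0.85 and 0.46 TPM in APA.DHT. It passed the filter only through the DHT and BIC.DHT libraries, so these levels are a description. Its place in the counts of called pathway genes above is not support for them.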
